A study of Mus musculus with 17 samples.

Results

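The 34 genes described here are mouse genes known to respond to interferon gamma and were taken by symbol from a list of such genes. They comprise 10 guanylate-binding proteins (GBPs), 7 immunity-related GTPases (IRGs), the 3 chemokines Cxcl9, Cxcl10 and Cxcl11, 5 regulators, 4 effectors, 3 proteasome genes and 2 surface proteins. All 34 were found among the 54146 genes of the files, and all 34 passed the filter on low counts that left 19557 genes for testing. Whole lung was profiled by RNA sequencing in 17 libraries of a study on the chloride intracellular channel gene Clic4 in hosts for metastasis of breast cancer. The libraries fall into Clic4 KO lung at day 14 (5 libraries, animals aged 8 weeks), WT lung at day 14 (6 libraries, 8 weeks), Clic4 KO lung at day 0 (2 libraries, 6 weeks) and WT lung at day 0 (4 libraries, 6 weeks). All 4 groups carry the strain label FVB/6DT1, and the labels name no treatment between the days. The sample titles call the day 0 libraries Control and the day 14 libraries 14 Days, without saying what Control refers to. Day, age and whatever Control stands for changed together, so they cannot be told apart. The series' design text gives other group sizes than the labels of the samples, and the labels were used. The labels do not say how the KO allele was made or tie libraries to animals, so p-values measure the spread between these libraries, which may be technical.

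Interferon gamma is made mainly by NK and T cells and binds the receptor Ifngr1/Ifngr2, which signals through the kinases Jak1 and Jak2. The signal acts at gamma-activated sites (GAS) near target genes and induces, among others, the transcription factor Irf1, which binds interferon-stimulated response elements (ISRE). Type I interferons act through ISREs as well, so many GTPase genes respond to both kinds of interferon, while Cxcl9 is known as a more selective target of interferon gamma. GBPs and IRGs coat and break open the vacuoles of intracellular pathogens, and the chemokines Cxcl9 to Cxcl11 attract T and NK cells that carry the receptor Cxcr3.

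The libraries held 20607811 to 35743830 counts each, and scaling factors ran from 0.977 to 1.01. Clic4, the targeted gene, had 302 to 399 counts per 1000000 counts of the library (CPM) in the 7 KO libraries and 925 to 1281 CPM in the 10 WT libraries, so each library fitted its genotype label, although reads remained in the KO. No library was a copy of another of its group, with a chi-square per gene of 12.43 to 69.4 between pairs. The library numbers in the sample titles follow genotype, so anything set by that order cannot be told apart from genotype. The 8 lung markers summed to 33110 to 36590 CPM in KO day 14, 31520 to 35990 in WT day 14, 36440 to 38340 in KO day 0 and 32520 to 35860 in WT day 0, and none was at 0 in any group. Library 2 of KO day 14 and library 5 of WT day 14 stood apart from the rest on these genes, so results that rest on them are given with all 17 libraries and with the 15 others, a choice made after seeing the data. In whole tissue, fewer cells of a type and less RNA per cell cannot be told apart.

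By level, the surface protein gene Ly6a (Sca-1) stood highest of the 34, with a mean of 826.5 FPKM (fragments per kilobase of transcript, scaled to library size) over the 17 libraries and a range of 507 to 1653. The proteasome activator genes Psme1 and Psme2 followed with means of 133 and 131 FPKM, then the immunoproteasome subunit gene Psmb10 with 80.3 FPKM and Irf1 with 76.1 FPKM. Among the GTPases, mean levels ran from 50.4 FPKM for Gbp2 and 33.5 FPKM for Igtp down to 1.95 FPKM for Gbp6 and 1.56 FPKM for Gbp2b. The chemokines were low, at mean levels of 2.46 FPKM for Cxcl10, 1.05 FPKM for Cxcl9 and 0.159 FPKM for Cxcl11. At the bottom with Cxcl11 were Socs1, an inhibitor of Jak kinases, at 0.840 FPKM and Ubd, a ubiquitin-like modifier, at 0.268 FPKM. Cxcl11 is annotated as a polymorphic pseudogene in GENCODE M21 and rested on 48 counts over the KO day 14 libraries, 56 over WT day 14, 9 over KO day 0 and 7 over WT day 0.

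**Figure D1:**
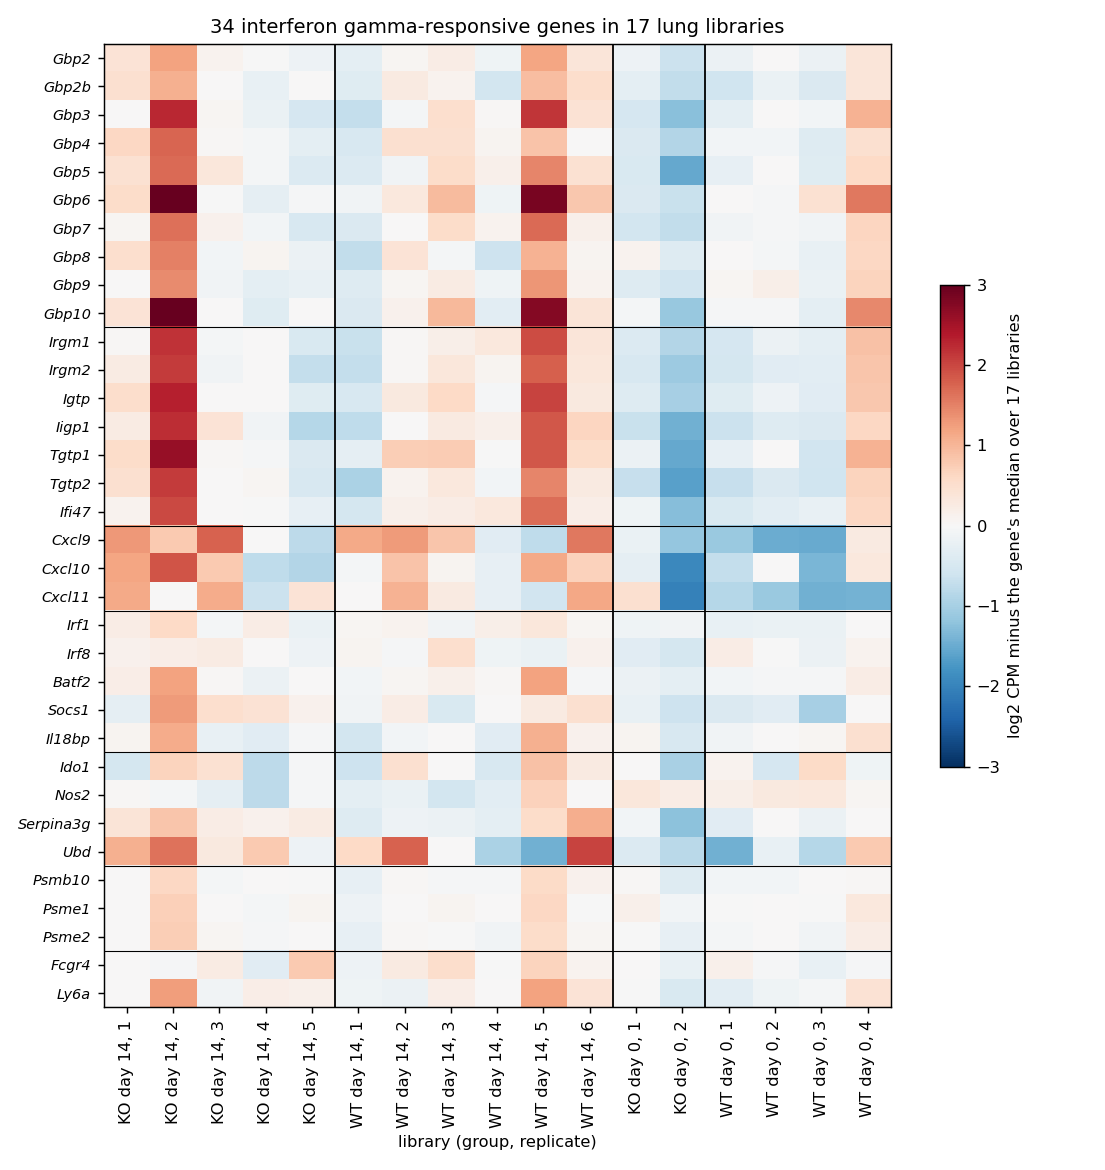
Heat map of log2 CPM minus each gene's median over the 17 libraries, with 1 row per gene by role and 1 column per library by group, in colours cut at 3 either side of 0. Library 2 of KO day 14 and library 5 of WT day 14 are red across the GBPs and IRGs, while Cxcl9 and Cxcl11 follow another order of libraries.

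The 34 genes varied widely between libraries of the same group. The SD of log2 CPM within groups had a median of 0.588 over the 34 genes, against 0.187 over all genes tested, and all 34 lay above that median of all genes. It was 1.14 for Gbp10, 1.10 for Gbp6 and 0.851 for Igtp, whereas Irf1 (0.198) and Irf8 (0.202) lay close to the median of all genes. Most of the spread of the GTPases came with 2 day 14 libraries, 1 of each genotype. These were picked out from the values of these genes themselves, so the next values describe them and are no test. Library 2 of KO day 14 was the highest of all 17 libraries for 25 of the 34 genes and for 16 of the 17 GTPases. The exception was Gbp7, which was highest in library 5 of WT day 14. Of all 19557 genes, 7.74% had their highest value in library 2 of KO day 14.

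For 25 of the 34 genes, including all 17 GTPases, these were the 2 highest libraries, as they were for 2.3% of all genes tested. The summed GBP level was 1533 CPM in library 2 of KO day 14, where the group's median was 501, and 1330 CPM in library 5 of WT day 14, where the median was 547. Summed IRGs gave 1474 CPM in library 2 of KO day 14 (group median 340) and 1140 CPM in library 5 of WT day 14 (group median 385). Relative to the median of the other libraries of its group, library 2 of KO day 14 stood 3.97 to 6.15-fold higher on the IRGs, with a median of 4.43-fold, and 2.10 to 8.98-fold higher on the GBPs, with a median of 3.09-fold. The corresponding values in library 5 of WT day 14 were 2.49 to 3.44-fold on the IRGs, with a median of 3.26-fold, and 1.71 to 6.13-fold on the GBPs, with a median of 2.43-fold. Of all genes tested, 2.2% lay over 2-fold above the rest of the group in library 2 of KO day 14 and 2.35% in library 5 of WT day 14. Both libraries passed 2-fold for 19 of the 34 genes and for 0.946% of all genes.

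The 2 GTPase families did not move alone in these libraries. The immunoproteasome and its activators were 1.52 to 1.67-fold above the rest of the group in library 2 of KO day 14 and 1.49 to 1.53-fold above it in library 5 of WT day 14. Il18bp, which neutralises interleukin 18, was 2.34-fold and 2.21-fold higher there, and the transcription factor gene Batf2 2.29-fold and 2.23-fold. Ly6a reached 1173 CPM in library 2 of KO day 14 and 1146 CPM in library 5 of WT day 14, against 359 to 667 CPM in the other 15 libraries. Cxcl9, Cxcl11 and the myeloid factor gene Irf8 did not follow, with 1.11-fold, 0.590-fold and 1.09-fold in library 2 of KO day 14 and 0.268-fold, 0.562-fold and 0.828-fold in library 5 of WT day 14. Ubd was split, at 2.12-fold in library 2 of KO day 14 and 0.243-fold in library 5 of WT day 14. These 2 values rest on few reads, with 36 counts of Ubd over all KO day 14 libraries and 49 over all WT day 14 libraries. Cxcl10, which lies next to Cxcl9 and Cxcl11 on chromosome 5, was also high there, at 3.71-fold and 2.07-fold. It shared the pattern only in part, since these were not its 2 highest libraries and library 1 of KO day 14 stood at 2.25-fold.

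At day 0, library 4 of WT stood highest on the GTPases. It held 755 CPM of summed GBPs (group median 476) and 552 CPM of summed IRGs (group median 258), and it was 1.91 to 2.45-fold above the rest of its group on the 7 IRGs. It was the third highest library, after the 2 day 14 libraries, for 13 of the 17 GTPases. At the other end, library 2 of KO day 0 was the lowest of 17 libraries for 25 of the 34 genes, as it was for 8.7% of all genes tested. Its sums were 287 CPM of GBPs and 139 CPM of IRGs.

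**Figure D2:**
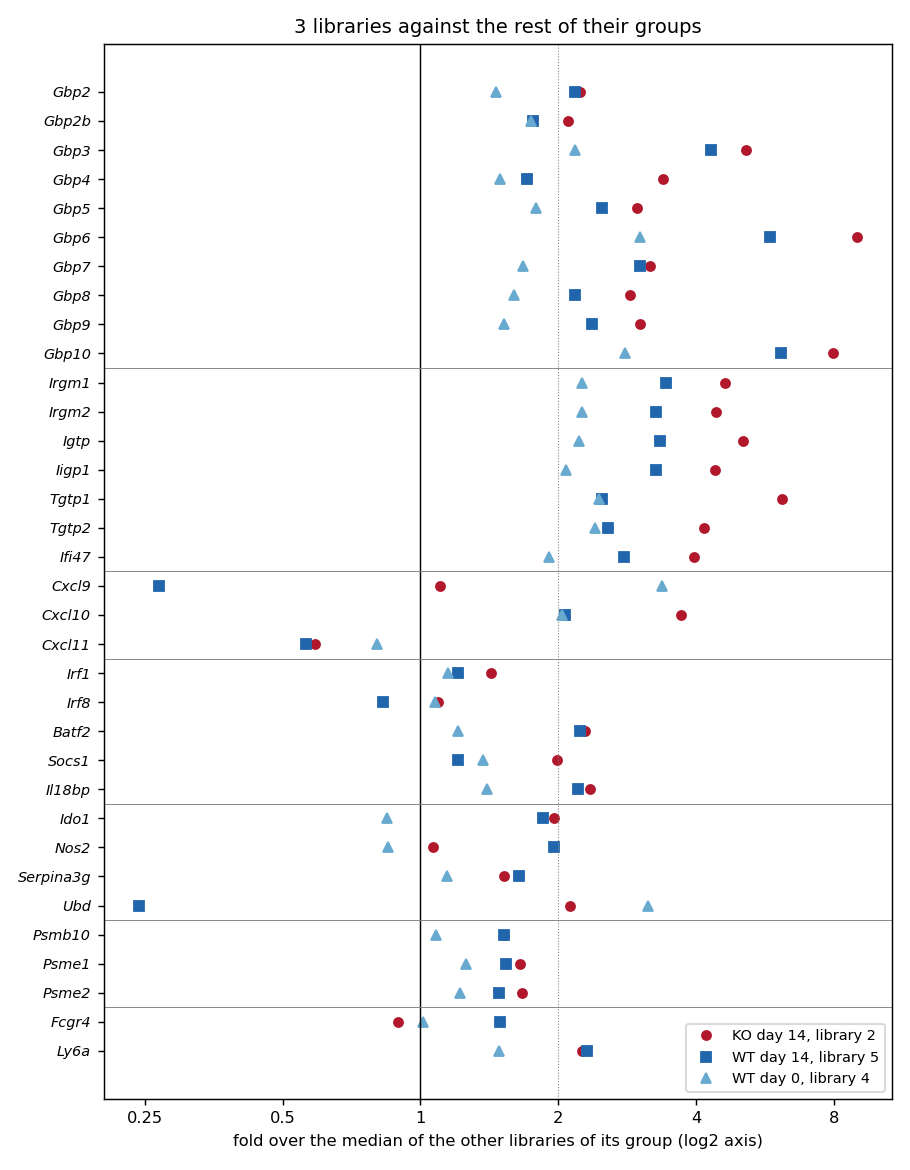
Fold of 3 libraries over the median of the other libraries of their group for each of the 34 genes, on a log2 axis, with lines at 1-fold and 2-fold. In library 2 of KO day 14 and library 5 of WT day 14 all 7 IRGs lie beyond 2-fold, while Cxcl11 lies below 1-fold in all 3 libraries.

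The type I interferon-stimulated genes were high in the same libraries, and more so. All 21 genes of that list were over 2-fold above the rest of the group in both day 14 libraries, with a median of 7.69-fold in library 2 of KO day 14 and 6.57-fold in library 5 of WT day 14. Their sum was 3801 CPM in library 2 of KO day 14 (group median 516) and 3845 CPM in library 5 of WT day 14 (group median 738.3), and library 4 of WT day 0 reached 1428 CPM (group median 568). Of 14 signalling genes tested, 3 were over 2-fold in both libraries. Among them, Stat2 and Irf9, transcription factors of the type I response, had 313 and 195 CPM in library 2 of KO day 14 and 304 and 192 CPM in library 5 of WT day 14. The genes of the receptor and the kinases were not over 2-fold: Ifngr1 had 156 and 191 CPM in these libraries, Ifngr2 55.5 and 42.2, Jak1 270.2 and 330.3, and Jak2 89.3 and 89.3. Ifng itself, the ligand, was at 0.167 CPM in library 2 of KO day 14 and 0.197 CPM in library 5 of WT day 14, within the range of 0 to 0.313 CPM over all libraries.

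The marker lists of other cells did not share this pattern, with 1 of 10 macrophage and monocyte markers and none of the NK, T, B, dendritic and neutrophil markers over 2-fold in both libraries. Neutrophil markers were at a median of 0.203-fold of the rest of the group in library 2 of KO day 14 and at 1.85-fold in library 5 of WT day 14, and NK markers at 0.750-fold and 1.28-fold. T cell markers were at 0.632-fold in library 2 of KO day 14 and 1.04-fold in library 5 of WT day 14, and B cell markers at 0.603-fold and 0.964-fold. In library 4 of WT day 0 the NK markers were at 1.88-fold, and their part in its GTPase values was not tested.

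**Figure D3:**
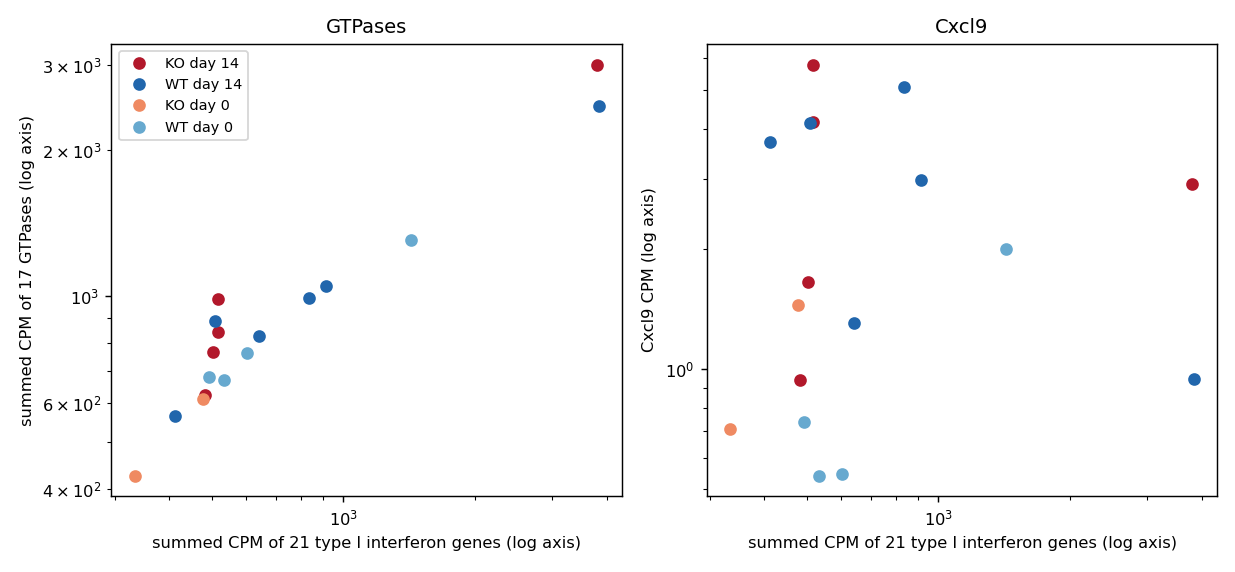
Summed CPM of the 21 type I interferon-stimulated genes in each of 17 libraries against the summed CPM of the 17 GTPases (left) and against Cxcl9 CPM (right), all axes on a log scale, coloured by group. The 2 libraries at the right, at 3801 (KO day 14) and 3845 CPM (WT day 14), are the highest on the GTPases, whereas for Cxcl9 they hold 2.91 CPM (KO day 14) and 0.946 CPM (WT day 14).

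Promoter sequence was looked at because the GTPases and Cxcl9 ordered the libraries differently. RefSeq windows (GRCm38.p6) from 250 bases before to 50 bases after the start were at hand for 23 of the 34 genes, in 27 windows. An ISRE core, searched on both strands as GAAA, any 2 bases and GAAA, was present in 14 of the 23 genes (60.9%), against 3.99% of 27025 genes with a window. A GAS core, searched as TTCNNNGAA, which reads the same on both strands, was present in 9 of 23 genes (39.1%), against 9.55% of all genes. Of the type I interferon-stimulated genes with a window, 8 of 14 (57.1%) held the ISRE core and 2 of 14 (14.3%) the GAS core. Both cores were found at Gbp5, Gbp7, Irgm2, Igtp, Tgtp1 and Tgtp2, only the GAS core at Irf1, Irf8 and Serpina3g, and neither at Cxcl9, Ifi47, Il18bp, Ubd, Psmb10 and Psme2. Of these 6, Ifi47 and Il18bp were over 2-fold in both high libraries, Cxcl9, Psmb10 and Psme2 in neither, and Ubd only in library 2 of KO day 14. Of the 14 genes with an ISRE core, Fcgr4, Socs1 and Psme1 were over 2-fold in neither. Gbp2b was so only in library 2 of KO day 14, and the others were in both. Irf1, Irf8 and Serpina3g were over 2-fold in neither. Whether the cores bear on the order of the libraries was not tested. A match is a description of the letters and shows no binding. Only exact core letters were searched, so a missing match, as at Cxcl9, does not show that a window lacks a response element. The windows of 7 genes, chosen to show both GTPase families, Irf1 and the chemokines that did and did not go with them, are printed 5′ to 3′ on the gene's strand for the 250 bases before the start, with ISRE and GAS cores on either strand in capitals.
Gbp2, chr3:142620413-142620662, plus strand: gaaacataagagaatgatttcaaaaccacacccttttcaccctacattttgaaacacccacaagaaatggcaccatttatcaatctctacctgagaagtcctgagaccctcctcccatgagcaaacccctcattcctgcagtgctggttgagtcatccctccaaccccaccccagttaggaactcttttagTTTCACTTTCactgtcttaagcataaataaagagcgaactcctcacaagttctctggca
Gbp7, chr3:142530086-142530335, plus strand: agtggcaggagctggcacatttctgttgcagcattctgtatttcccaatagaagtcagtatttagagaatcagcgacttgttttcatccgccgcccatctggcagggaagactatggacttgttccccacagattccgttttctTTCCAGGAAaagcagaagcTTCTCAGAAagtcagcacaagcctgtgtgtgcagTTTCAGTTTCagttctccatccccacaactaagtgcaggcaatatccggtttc
Igtp, chr11:58199306-58199555, plus strand: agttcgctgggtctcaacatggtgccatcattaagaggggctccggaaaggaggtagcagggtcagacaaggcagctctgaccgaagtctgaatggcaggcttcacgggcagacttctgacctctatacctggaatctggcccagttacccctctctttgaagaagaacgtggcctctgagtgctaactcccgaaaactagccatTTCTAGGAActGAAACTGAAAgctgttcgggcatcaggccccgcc
Tgtp2, chr11:49064213-49064462, minus strand: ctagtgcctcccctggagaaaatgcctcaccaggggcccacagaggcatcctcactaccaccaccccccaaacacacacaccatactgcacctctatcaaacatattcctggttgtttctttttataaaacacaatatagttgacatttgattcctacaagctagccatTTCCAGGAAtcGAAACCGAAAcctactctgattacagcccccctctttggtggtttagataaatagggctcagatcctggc
Irf1, chr11:53769764-53770013, plus strand: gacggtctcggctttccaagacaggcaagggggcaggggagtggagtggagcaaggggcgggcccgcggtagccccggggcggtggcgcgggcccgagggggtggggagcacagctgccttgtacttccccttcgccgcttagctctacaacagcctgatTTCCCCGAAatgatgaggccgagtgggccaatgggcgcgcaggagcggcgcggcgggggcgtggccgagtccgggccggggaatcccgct
Cxcl10, chr5:92348890-92349139, minus strand: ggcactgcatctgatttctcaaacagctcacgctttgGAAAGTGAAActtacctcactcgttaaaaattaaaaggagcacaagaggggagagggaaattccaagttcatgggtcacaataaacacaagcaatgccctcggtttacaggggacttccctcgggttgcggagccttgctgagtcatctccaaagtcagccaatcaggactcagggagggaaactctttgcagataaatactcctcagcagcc
Cxcl9, chr5:92328080-92328329, minus strand: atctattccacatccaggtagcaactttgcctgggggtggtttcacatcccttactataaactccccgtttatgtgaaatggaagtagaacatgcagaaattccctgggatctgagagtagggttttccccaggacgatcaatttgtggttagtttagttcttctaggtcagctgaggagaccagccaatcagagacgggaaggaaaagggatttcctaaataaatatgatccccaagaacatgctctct

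At Igtp and Tgtp2 the 2 cores lay close to each other, the GAS core at -45 and the ISRE core at -34 from the start at Igtp, and at -81 and -70 at Tgtp2. Gbp2 had its ISRE core at -59, counted from a RefSeq start that lies 61 bases from the GENCODE start. Gbp7 had an ISRE core at -53 and GAS cores at -106 and -87. Irf1 had a GAS core at -90 and Cxcl10 an ISRE core at -213. For Gbp4, Gbp6, Gbp8, Gbp9, Gbp10, Iigp1, Cxcl11, Batf2, Ido1, Nos2 and Ly6a no window was used here.

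Between KO and WT lung at day 14, the comparison of the genotypes at the later time, the 34 genes lay close together. No member was called at an adjusted p under 0.05 by edgeR's quasi-likelihood test, where 0.107% of 19557 genes were called, and none had an unadjusted p under 0.05, where 8.95% of genes did. DESeq2 and limma-voom called none of the 34 either. Fold changes of KO over WT were positive for 30 genes and negative for 4, with a median log2 fold change of 0.11 (0.00 over all genes tested). KO and WT libraries overlapped for all 34, while 0.583% of genes were higher and 0.394% lower without overlap. These signs rested on the 2 high libraries: without both, 14 genes were positive and 20 negative, with a median of -0.03. Without library 2 of KO day 14 alone the median was -0.26, and without library 5 of WT day 14 alone it was 0.35. NK markers summed to 58.4 to 88.5 CPM in KO day 14 and 71.1 to 224 CPM in WT day 14. All 10 had negative fold changes (median log2 -0.62), and 3 had an unadjusted p under 0.05. T cell markers were negative for 8 of 10 (median -0.04) and B cell markers for 2 of 6 (median 0.11). None of these markers was called, and their part was not tested.

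Gbp2, one of the most abundant GBPs, had 134, 233, 109, 99.98 and 91.2 CPM in KO day 14 libraries and 82.8 (lowest), 111 (median) and 229 (highest) CPM in WT day 14 libraries. Each group held 1 library far above the rest, and the other libraries of both groups overlapped. The log2 fold change was 0.08 ± 0.29 (SE), with an adjusted p of 0.965 in edgeR. Igtp, a regulatory IRG, had 61.5, 216, 42.8, 42.5 and 32.9 CPM in KO day 14 and 30.2, 52.1 and 173 CPM (lowest, median, highest) in WT day 14, a log2 fold change of 0.20 ± 0.55 (edgeR, adjusted p = 0.953). Again 1 library of each group stood apart and the rest overlapped. Cxcl9 had 4.15, 2.91, 5.79, 1.66 and 0.940 CPM in KO day 14 and 0.946, 3.35 and 5.10 CPM (lowest, median, highest) in WT day 14, spread over the same range in both groups (log2 fold change 0.05 ± 0.49).

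The smallest unadjusted p of the 34 at day 14 was that of Socs1, the feedback inhibitor of the pathway. It had 1.71, 5.12, 2.98, 2.85 and 2.28 CPM in KO day 14 and 1.49, 2.27 and 2.96 CPM (lowest, median, highest) in WT day 14. Libraries 2 and 3 of KO day 14 lay above all WT libraries and the others inside their range, and the log2 fold change was 0.41 ± 0.25 (edgeR, unadjusted p = 0.110, adjusted p = 0.669). Gbp8 came next, with 15.4, 31.2, 10.3, 11.4 and 9.54 CPM in KO day 14 and 6.47, 10.98 and 22.6 CPM (lowest, median, highest) in WT day 14. Its log2 fold change of 0.37 ± 0.37 had an adjusted p of 0.813 in edgeR. Gbp4 had 121, 267, 81.8, 75.9 and 64.6 CPM in KO day 14 and 57.0, 97.5 and 144 CPM (lowest, median, highest) in WT day 14, with a log2 fold change of 0.32 ± 0.36 (edgeR, adjusted p = 0.841). In both genes the 4 other KO libraries lay inside the range of the WT libraries. Irf1 had 161, 208, 133, 160.0 and 120.1 CPM in KO day 14 and 128, 146 and 174 CPM (lowest, median, highest) in WT day 14. Psmb10 had 63.2, 95.8, 59.9, 63.7 and 62.5 CPM in KO day 14 and 52.8, 62.8 and 93.8 CPM in WT day 14. Their log2 fold changes were 0.07 ± 0.11 for Irf1 and 0.04 ± 0.14 for Psmb10.

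**Figure D4:**
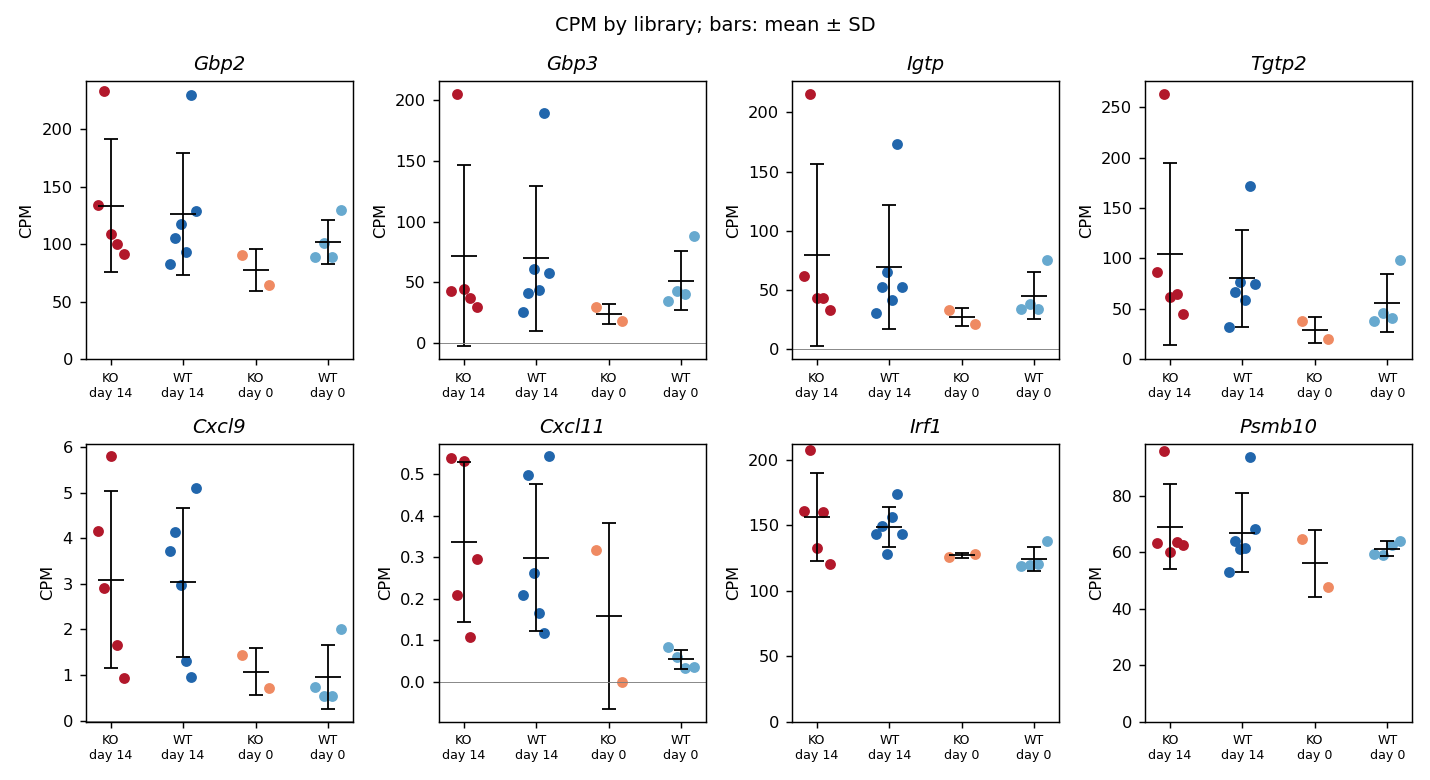
CPM in each library for 8 genes, by group from left to right KO day 14, WT day 14, KO day 0 and WT day 0, with the mean and SD as bars (n = 5, 6, 2 and 4) and linear axes. Gbp2, Gbp3, Igtp, Tgtp2 and Psmb10 show 1 high library in KO day 14 and 1 in WT day 14, and Cxcl11 is low in WT day 0, at 0.0339 to 0.0849 CPM.

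Between KO and WT lung at day 0, fold changes of KO over WT were negative for 30 of the 34 genes, with a median log2 fold change of -0.48 (0.00 over all genes tested). All 10 GBPs were negative (median -0.73) and all 7 IRGs (median -0.78). edgeR called 0 of 34 at an adjusted p under 0.05, where 0.0256% of 19557 genes were called, and DESeq2 and limma-voom called none. At an unadjusted p under 0.05 it counted 1 of 34, lower in KO, where 3.59% of genes were. Without the 2 high day 14 libraries, which share the fit, that count was 6 of 34, 5 of them GBPs, and 7.48% of genes passed in either direction. The 7.48% covers both directions and cannot be set against the 3.59%. The 2 libraries were picked from the values of these genes, so leaving them out narrows the spread of the 34, and the rise is no test. In 11 of the 34 genes both KO libraries lay below all 4 WT libraries, where 9.12% of all genes did, and in none did they lie above, where 8.88% did. The 11 were Gbp3, Gbp4, Gbp5, Gbp6, Gbp7, Gbp9, Igtp, Iigp1, Tgtp2, Irf8 and Batf2. The 34 genes vary together across libraries, so they are not 34 separate observations. The median was -0.88 without library 1 of KO day 0, -0.15 without library 2 of KO day 0 and -0.29 without library 4 of WT day 0. NK markers were at 39.4 to 80.0 CPM in KO day 0 and 97.4 to 202 CPM in WT day 0 in sum, with none at 0. All 10 had negative fold changes (median log2 -1.16), as they had at day 14. At an unadjusted p under 0.05, 7 of the 10 were lower in KO, where 3.59% of all genes were. None passed after adjustment, and their part in the GTPase values was not tested. B cell markers summed to 88.3 to 157 CPM in KO day 0 and 194 to 274 CPM in WT day 0, T cell markers to 78.6 to 92.4 CPM in KO day 0 and 93.1 to 138 CPM in WT day 0, and no marker of either list was at 0. Fold changes were negative for 6 of 6 B cell markers (median log2 -0.97) and 10 of 10 T cell markers (median -0.45). At an unadjusted p under 0.05, 3 of the 6 and 1 of the 10 were lower in KO, where 3.59% of all genes were. None of these markers was called, and their part was not tested.

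Irf8, a transcription factor of monocytes, dendritic cells and B cells, had the smallest unadjusted p of the 34 at day 0. It was at 55.9 and 49.1 CPM in KO day 0 libraries and at 83.4, 70.7, 62.7 and 76.2 CPM in WT day 0 libraries. Both KO libraries lay below the 4 WT libraries, and the log2 fold change was -0.48 ± 0.17 (edgeR, unadjusted p = 0.0100, adjusted p = 0.661). Gbp5, which takes part in inflammasome activation, had 17.7 and 8.45 CPM in KO day 0 and 20.7, 24.5, 18.9 and 37.1 CPM in WT day 0. The KO values were again below all WT values, with a log2 fold change of -0.95 ± 0.63 (edgeR, adjusted p = 0.813). Cxcl11 had 0.318 and 0 CPM in KO day 0 and 0.0849, 0.0609, 0.0339 and 0.0358 CPM in WT day 0. Its log2 fold change of 1.48 ± 1.01 came from 1 KO library and turned to -3.83 without that library.

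The members that stand for their roles had the following values at day 0. Gbp2 was at 90.1 and 64.3 CPM in KO day 0 and at 88.7, 100.9, 88.8 and 129.8 CPM in WT day 0, so the groups overlapped by 1 library. Igtp was at 32.5 and 21.3 CPM in KO day 0 and at 33.2, 38.2, 33.7 and 74.8 CPM in WT day 0, without overlap but with 1 KO library close to the lowest WT values. Their log2 fold changes were -0.40 ± 0.42 for Gbp2 and -0.74 ± 0.83 for Igtp. Cxcl9 was at 1.45 and 0.707 CPM in KO day 0 and at 0.736, 0.548, 0.542 and 2.01 CPM in WT day 0. Irf1 was at 126 and 128 CPM in KO day 0 and at 119, 120.0, 121 and 138 CPM in WT day 0. Psmb10 was at 64.5 and 47.7 CPM in KO day 0 and at 59.3, 59.0, 62.7 and 64.1 CPM in WT day 0. In these 3 genes the groups overlapped, with log2 fold changes of 0.19 ± 0.82 for Cxcl9, 0.03 ± 0.16 for Irf1 and -0.13 ± 0.21 for Psmb10.

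At day 14 against day 0 in WT lung, the comparison of the later with the earlier time without the KO, 33 of 34 fold changes were positive, with a median log2 fold change of 0.40 (0.00 over all genes). edgeR called 0 of 34 at an adjusted p under 0.05, and 0% of the 19557 genes, and DESeq2 and limma-voom called none of the 34. At an unadjusted p under 0.05 it counted 3 of 34, all higher at day 14, where 4.72% of genes were. For Cxcl11 alone the day 14 libraries lay above all day 0 libraries, where 1.2% of all genes did, and no member lay below, where 1.38% did. Cxcl11 held 9 counts over KO day 0 and 7 over WT day 0, so it passed the filter on low counts only through day 14 libraries. That filter favours a higher day 14 value, so the lack of overlap of Cxcl11 is no test. Without the 2 high day 14 libraries the GTPases were no longer on 1 side: 4 of 10 GBPs were positive (median -0.09) and 7 of 7 IRGs (median 0.13). The median of the 34 was then 0.08, while that of the 3 chemokines was 1.86 (1.68 with 17 libraries), and still no member was called. Library 5 of WT day 14 was at 0.268-fold of the rest of its group on Cxcl9 and 0.562-fold on Cxcl11. Leaving it out therefore raises these 2 genes and lowers the GTPases, so the contrast came in part with the choice of libraries. The median of the 34 was 0.08 without library 5 of WT day 14 alone and 0.62 without library 4 of WT day 0.

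The 3 genes with the smallest p in this comparison were 2 chemokines and Irf1. Cxcl11 had 0.118 (lowest), 0.236 (median) and 0.544 (highest) CPM in WT day 14 and the 0.0339 to 0.0849 CPM given above in WT day 0. The log2 fold change was 2.35 ± 0.73 (edgeR, unadjusted p = 0.00491, adjusted p = 0.315), from 56 counts at day 14 and 7 at day 0. Because Cxcl11 passed the filter on low counts only through day 14 libraries, its rank by p is no support for a rise. Cxcl9, a Cxcr3 ligand, had 0.946, 3.35 and 5.10 CPM (lowest, median, highest) in WT day 14 against 0.542 to 2.01 CPM in WT day 0. Of the 6 day 14 libraries 4 lay above all day 0 libraries, and the log2 fold change was 1.68 ± 0.59 (edgeR, unadjusted p = 0.0126, adjusted p = 0.395). Irf1 had a log2 fold change of 0.26 ± 0.12 (edgeR, unadjusted p = 0.0424, adjusted p = 0.533), with 1 day 0 library, at 138 CPM, inside the day 14 range. Cxcl10 was at 1.11, 1.82 and 3.04 CPM (lowest, median, highest) in WT day 14 and 0.474 to 1.68 CPM in WT day 0, a log2 fold change of 0.84 ± 0.55. The smallest adjusted p that any other setting gave was 0.1495 for Cxcl11 and 0.169 for Cxcl9. Neutrophil markers summed to 127 to 492 CPM in WT day 14 and 58.4 to 112.5 CPM in WT day 0. All 5 were higher at an unadjusted p under 0.05, where 4.72% of all genes were, and none passed adjustment. None of the 5 was at 0, and their part in the chemokine values was not tested.

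At day 14 against day 0 in KO lung, 33 of 34 fold changes were positive, with a median log2 fold change of 1.01 (0.01 over all genes). The 10 GBPs had a median of 1.19 and the 7 IRGs of 1.55. edgeR called 0 of 34 at an adjusted p under 0.05, where 0% of genes were called, and DESeq2 and limma-voom called none of the 34. At an unadjusted p under 0.05 it counted 7 of 34, all higher at day 14, where 4.33% of genes were: Irf8, Socs1, Gbp5, Gbp4, Serpina3g, Tgtp2 and Cxcl10. All 5 day 14 libraries lay above both day 0 libraries for 14 of 34 genes, where 5.6% of all genes did, and below them for 1, Nos2, where 6.2% did. Ubd, among the 14, had 3 counts over KO day 0 and at most 0.251 CPM in a WT day 0 library. It passed the filter on low counts only through day 14 libraries, so its place among the 14 is no support. Without the 2 high libraries the median was 0.56, with 32 positive and 2 negative, and without library 2 of KO day 14 alone it was also 0.56. The KO day 0 group has 2 libraries, of which 1 is the lowest of all 17 for most of these genes. The day 14 fold changes in KO share those libraries with the KO to WT comparison of day 0, so these comparisons are not independent. Neutrophil markers summed to 46.5 to 546 CPM in KO day 14 and 59.9 to 85.6 CPM in KO day 0, with library 2 of KO day 14 the lowest. All 5 had positive fold changes (median log2 1.735), and 3 were higher at an unadjusted p under 0.05, where 4.33% of all genes were. B cell markers summed to 108.5 to 290.2 CPM in KO day 14 and 88.3 to 157 CPM in KO day 0, with 6 of 6 fold changes positive (median 0.55). Dendritic cell markers summed to 166.5 to 201 CPM in KO day 14 and 139 to 163 CPM in KO day 0, with 8 of 8 positive (median 0.45). T cell markers were positive for 10 of 10 (median 0.28) and NK markers for 9 of 10 (median 0.29). No marker was at 0 in either group, none was called, and their part in the values of the 34 genes was not tested.

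Irf8 was at 78.3, 81.7, 84.9, 71.3 and 64.2 CPM in KO day 14 and at 55.9 and 49.1 CPM in KO day 0, with no overlap. The log2 fold change was 0.54 ± 0.16 (edgeR, unadjusted p = 0.00410, adjusted p = 0.301). DESeq2 gave it an adjusted p of 0.0945, the lowest of the 4679 tests of a member over all settings. Socs1 was at 1.71 to 5.12 CPM in KO day 14, as listed above, and at 1.77 and 1.34 CPM in KO day 0, so 1 day 14 library lay between the day 0 libraries (log2 fold change 0.94 ± 0.37, edgeR adjusted p = 0.443). Gbp5 was at 33.8, 80.4, 31.0, 23.6 and 18.5 CPM in KO day 14 and at 17.7 and 8.45 CPM in KO day 0. Its groups did not overlap, and the log2 fold change was 1.51 ± 0.63 (edgeR, unadjusted p = 0.0322, adjusted p = 0.496). Nos2, the inducible nitric oxide synthase and the 1 gene with a negative value, was at 5.69 to 9.99 CPM in KO day 14 and at 12.4 and 11.4 CPM in KO day 0 (log2 fold change -0.48 ± 0.25, edgeR adjusted p = 0.587). Chemokine fold changes on the log2 scale in KO were 1.53 ± 0.79 for Cxcl9, 1.78 ± 0.78 for Cxcl10 and 1.07 ± 0.82 for Cxcl11.

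The difference between the KO effects at day 14 and at day 0 was tested as an interaction. It was positive for 30 of 34 genes, with a median of 0.61 on the log2 scale (0.01 over all genes). edgeR called 0 of 34, and 0% of genes, at an adjusted p under 0.05, and DESeq2 and limma-voom called none of the 34. At an unadjusted p under 0.05 it counted 1 of 34, with a positive difference, where 2.52% of genes had one. That gene was Irf8, with a difference of 0.50 ± 0.20 (unadjusted p = 0.0238, adjusted p = 0.988). Gbp4 with 0.98 ± 0.64 and Gbp5 with 1.08 ± 0.75 came next (edgeR, adjusted p = 0.988 for both). The median was 0.14 without library 2 of KO day 14 and 0.29 without library 2 of KO day 0, and was 0.93 without library 1 of KO day 0. The difference was also positive for 6 of 6 B cell markers (median 1.08), 10 of 10 NK markers (median 0.51) and 10 of 10 T cell markers (median 0.37), none of them called, and their part was not tested.

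**Figure D5:**
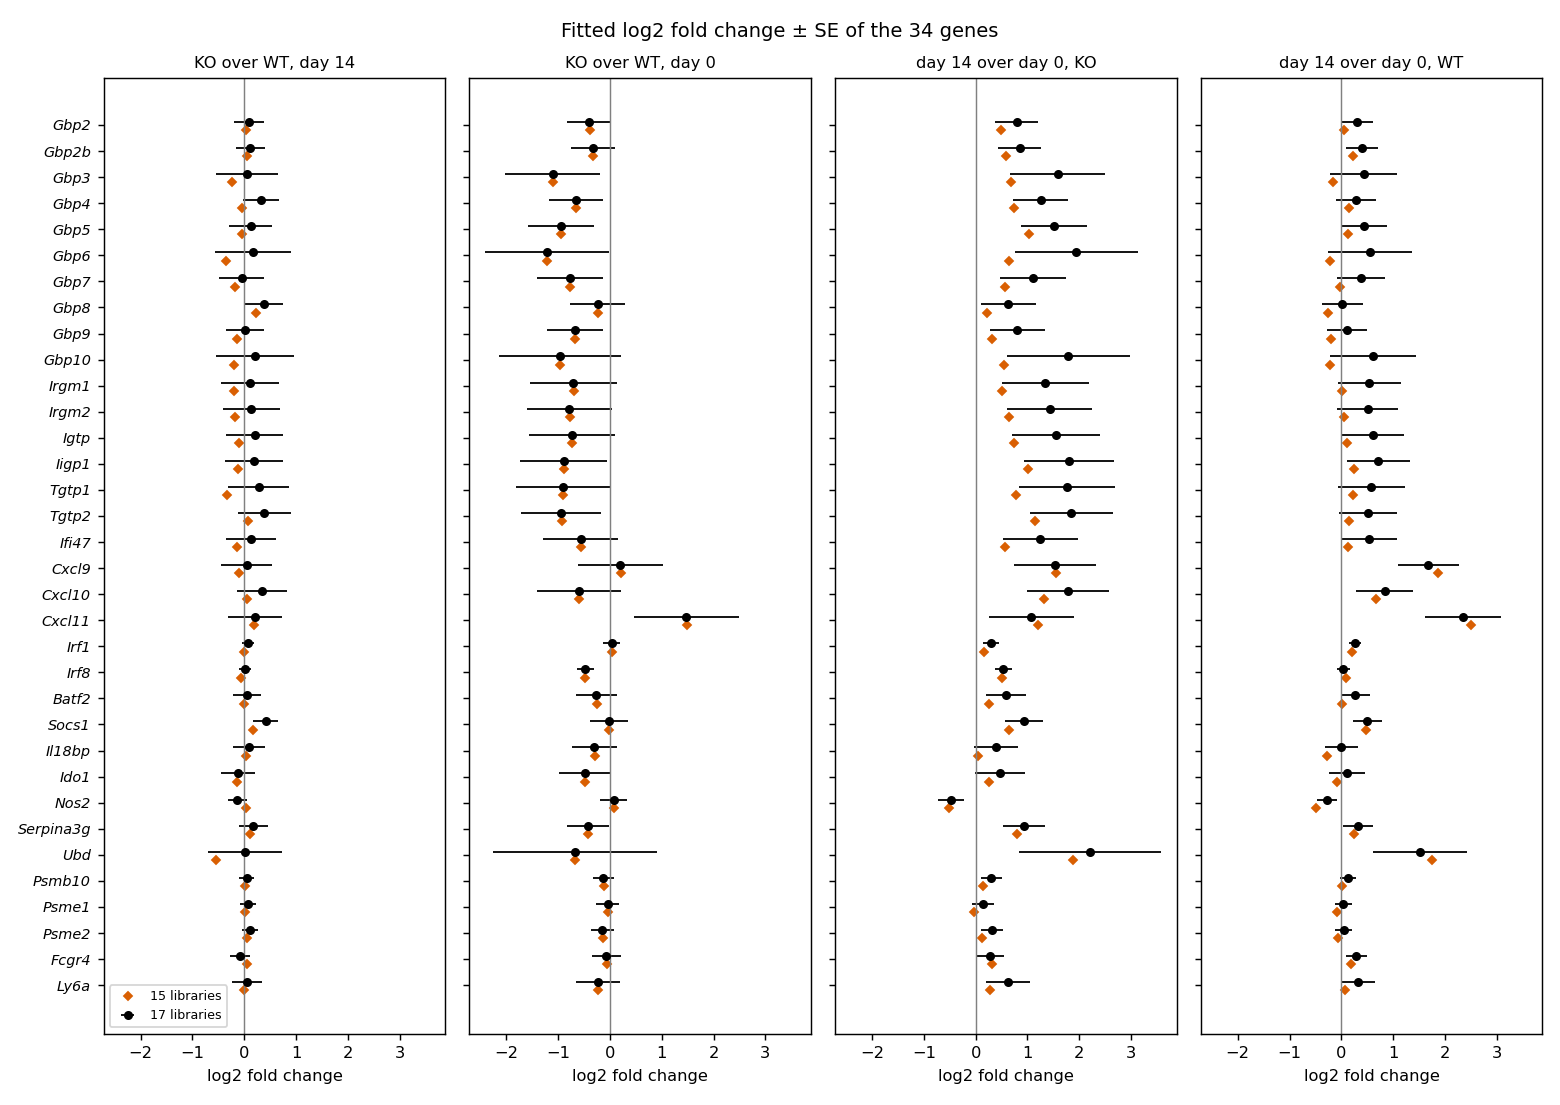
Fitted log2 fold changes of the 34 genes in 4 comparisons, with black points and bars for the value ± SE over 17 libraries and orange diamonds for the fit on 15 libraries, without the 2 high day 14 libraries. In KO over WT at day 14 the diamonds sit around 0 (14 positive, 20 negative), and in day 14 over day 0 in WT the GBP diamonds move to a median of -0.09 while Cxcl9 and Cxcl11 stay high.

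The rest of the pathway gave no call either. Of 15 signalling genes 14 were tested, Ifng falling below the filter with 0 to 10 counts per library, and edgeR called none in the 5 comparisons. At an unadjusted p under 0.05, 1 of the 14 was higher at day 14 over day 0 in KO and 1 in WT. Of all genes, 4.33% were higher in KO over time and 4.72% in WT. In KO over WT at day 14, 1 of the 14 was lower, where 8.95% of all genes passed in either direction. Another was lower in WT over time, and 1 was higher in KO at day 0. For these directions the share of all genes is not given here, so the counts cannot be judged. The interaction had 0. Ifngr1, Ifngr2, Jak1 and Jak2 lay between -0.19 and 0.11 on the log2 scale in KO over WT at day 14 and day 0 and in day 14 over day 0 in KO and WT. Cxcr3, the receptor of the 3 chemokines, had 2.73, 3.21, 4.54, 3.28 and 2.57 CPM in KO day 14 and 2.15 and 2.27 CPM in KO day 0, a log2 fold change of 0.57 ± 0.24 (edgeR, unadjusted p = 0.0279, adjusted p = 0.483). Of 10 genes for the induction of Ifng, Tbx21, a T-box factor of NK and T cells, had an unadjusted p under 0.05 at day 0 (log2 fold change of KO over WT -0.93 ± 0.26, adjusted p = 0.581). Of all genes, 3.59% were lower in KO at that level. Among 26 other targets of interferon gamma, edgeR called none in the 5 comparisons. In KO over WT at day 14, 5 of the 26 had an unadjusted p under 0.05, all higher in KO, where 4.92% of genes were: Ciita, the master regulator of MHC class II, with 0.43 ± 0.13 (adjusted p = 0.331), and Cd74, Cd40, H2-Aa and H2-Ab1 with 0.24, 0.19, 0.16 and 0.19. At day 14 over day 0 in KO 6 of the 26 had one, all higher at day 14, where 4.33% of genes were: Ciita with 0.62 ± 0.18 (adjusted p = 0.297), H2-Aa, H2-Ab1, Cd74, Aim2 and Wars. These fold changes share the KO day 14 libraries with those of KO over WT. In WT over time 1 had one (Acod1, higher, as were 4.72% of genes), in the interaction 1 (Cd40, positive, as were 2.52% of genes) and at day 0 none. The type I list had 0 of 21 calls in each of the 5 comparisons, and 0 of 21 at an unadjusted p under 0.05. Its median log2 fold change was -0.03 in KO over WT at day 14, -1.04 at day 0, 1.73 for day 14 over day 0 in KO and 0.69 in WT. Without the 2 high libraries it was -0.43, -1.03, 0.36 and -0.27 in that order of comparisons, again with no call. At day 0, 11 of 21 then had an unadjusted p under 0.05, all lower in KO. The share of all genes in that fit is given with the day 0 comparison above. All 21 genes were high in both libraries left out, so leaving these out narrows the spread of the 21 genes, and this count is no test.

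Whether Ifng and its targets ranked the libraries alike was asked for 4 genes over the 17 libraries, with few counts of Ifng behind each value. Pearson's r of log2 CPM with Ifng was 0.42 for Cxcl9, 0.51 for Gbp2, 0.49 for Igtp and 0.32 for Irf1, and Spearman's rho 0.51, 0.64, 0.70 and 0.35. Permutation p-values of r adjusted over the 4 relations were 0.121, 0.0918, 0.0918 and 0.206 (2-sided, 100000 resamples, raw p 0.0911, 0.0329, 0.0459 and 0.206), so no r passed. For rho the adjusted permutation p-values were 0.0527 for Cxcl9, 0.0149 for Gbp2, 0.00988 for Igtp and 0.165 for Irf1 (raw p 0.0395, 0.00747, 0.00247 and 0.165), so the ranks of Gbp2 and Igtp passed. They did so with each of the 17 libraries left out in turn, but not on FPKM (adjusted p = 0.0624 for both). Within groups the relation did not pass by either measure: with group means subtracted r was 0.26, 0.36, 0.34 and 0.12, and rho 0.31 for Cxcl9, 0.34 for Gbp2, 0.23 for Igtp and -0.03 for Irf1 (adjusted p = 0.56, 0.56, 0.585 and 0.919 for rho). Without the 2 libraries farthest from the median of Ifng, r was 0.59, 0.53, 0.53 and 0.48, and rho 0.58, 0.60, 0.69 and 0.49.

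Reads of several members could be shared with other genes. The transcripts of Tgtp1 and Tgtp2 were 99.8% identical over 99.6% and 100% of their lengths, and Gbp10 matched Gbp6 and Gm43302 at 99.2% over 97.8% of its length, so values of these single genes are uncertain. Psme2 matched Psme2b at 99.4% over 82.5% of its length. On the annotation, Igtp and Irgm2 share 7974 bases on the same strand, Gbp4, Gbp8 and Gbp9 overlap each other on the same strand, Irf8 overlaps Gm20388 and Ifi47 overlaps Olfr56. Cxcl10 and Cxcl11 lie opposite Art3, and whether counting used strand is not given in the sources used here.

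By position (GENCODE M21, GRCm38), Gbp5, Gbp7, Gbp3, Gbp2b and Gbp2 lie on chromosome 3, from 142493978 at the start of Gbp5 to 142638008 at the end of Gbp2. Gbp8, Gbp9, Gbp4, Gbp10 and Gbp6 lie on chromosome 5 from 105014150 to 105293698, and Cxcl9, Cxcl10 and Cxcl11 on the same chromosome from 92321347 to 92365485. Of the IRGs, 6 lie on chromosome 11. The 2 high day 14 libraries were therefore high on GTPase genes of all these clusters, with Gbp2 at 2.24-fold and Gbp3 at 5.14-fold on chromosome 3 and Gbp9 at 3.01-fold and Gbp6 at 8.98-fold on chromosome 5 in library 2 of KO day 14.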

How the data were processed

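Whole-lung RNA was extracted with Qiagen RNeasy and made into Illumina TruSeq v4 libraries, per the labels' protocols. The authors deposited 1 file of expected counts per library and a joint table of FPKM values; STAR 2.5.3, RSEM 1.3.0, limma 3.38.3 and build mm10 are listed, per the submitters' processing notes. The annotation release and any filter are not given in the sources used here. Reads were not aligned again. The deposited expected counts were rounded to whole numbers. Total counts per library ran from 20607811 to 35743830.

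Low genes were removed by edgeR's filterByExpr (minimum count 10), and libraries were scaled by TMM and fitted with edgeR 4.0.16 (quasi-likelihood, robust) in R 4.3.3, with all 17 libraries in 1 model of 4 group means. Adjusted p-values are Benjamini-Hochberg over 19557 genes, called under 0.05. CPM use TMM library sizes, and log2 CPM a prior count of 2. A log2 scale was also used for the authors' FPKM, with a pseudocount of 1 or 0.1 and a minimum mean of 1 FPKM in a group, in limma 3.58.1. Other alternatives were DESeq2 1.42.0, limma-voom, RLE factors, 2 other filters, fits on the compared groups only and leaving out each library. Fits on 15 and 14 libraries were added after seeing the data. An adjusted p that DESeq2 gave as NA stayed NA. The fit was tested on simulated data. Ifng was related to 4 genes by permutation (SciPy 1.17.1). Near copies were searched in GENCODE M21 transcripts with BLAST 2.17.0 (at least 95% identity over at least 100 bases).

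The members and lists were chosen with earlier results of these data known. Values in every library are given for the 3 members with the smallest unadjusted p in each comparison and for Gbp2, Igtp, Cxcl9, Irf1 and Psmb10, which stand for their roles. The groups have no shared replicate numbers, and libraries are numbered within a group in accession order. The values of 1 gene of the signalling list are not reported here.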

Additional observations from a re-analysis of the deposited data

Results flagged for a closer look

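In groups of 4 to 6 libraries, a gene was marked where its highest or lowest library lay farther from the nearest other than Dixon's 95% criterion allows. Chance marks about 1 in 20 groups, and the genes are not independent of each other. Of 102 combinations of gene and group examined 21 were marked, all on the high side and all in 3 libraries.

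Library 2 of KO day 14 was marked for 12 genes. Among the GBPs it held 205 CPM of Gbp3, 34.2 CPM of Gbp6, 235 CPM of Gbp7, 364 CPM of Gbp9 and 73.9 CPM of Gbp10. Among the IRGs it held 207 CPM of Irgm1 and 132 CPM of Ifi47. Outside the GTPases it held 15.9 CPM of Batf2, 95.8 CPM of Psmb10, 177 CPM of Psme1, 139 CPM of Psme2 and 1173 CPM of Ly6a. Gbp6 and Gbp10 are near copies, so these 2 count for little more than 1.

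Library 5 of WT day 14 was marked for 4 genes, with 28.0 CPM of Gbp6, 337 CPM of Gbp9, 15.7 CPM of Batf2 and 164 CPM of Psme1. All 4 were also marked in library 2 of KO day 14. Library 4 of WT day 0 was marked for 5 genes, with 117 CPM of Gbp7, 25.1 CPM of Gbp10, 123 CPM of Irgm2, 138 CPM of Irf1 and 134 CPM of Psme1. No library was marked for a chemokine. Why these libraries stand high was not tested.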

How the results depend on the processing

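In all 28 other settings (27 for the interaction) 0 of the 34 genes were called, in 4679 tests with a lowest adjusted p of 0.0945. Depth limits Cxcl11, Ubd and Ifng, and 2 libraries limit KO day 0. No paired analysis was possible because the labels give the groups no shared replicate numbers. Over all genes, edgeR called 2 higher and 3 lower in KO at day 0, 13 and 8 at day 14, and none over time or in the interaction. DESeq2 gave 11 and 15, 67 and 42, 67 and 43 (WT over time), 58 and 39 (KO over time) and 7 and 2 (interaction). limma on FPKM with no filter called 14 and 3 at day 0 3 and 16 in KO over time and 1 and 6 in the interaction, limma-voom 2 and 1 at day 0, edgeR on only the groups compared 2 and 11 at day 0, and edgeR on 15 libraries 55 genes in WT over time and 19 in KO. Where edgeR called none, the filters, RLE factors, limma-voom and limma on filtered FPKM called 0 to 5 genes a comparison. Signs of single genes turned as follows, and the cause was not tested. For KO over WT at day 14, Psmb10 was -0.0277, -0.028 and -0.0277 on FPKM (pseudocount 1, 0.1, and 1 with no filter), and on 15 or 14 libraries Gbp4 was -0.043 and -0.0352, Igtp -0.10 and -0.0899, Cxcl9 -0.11 and -0.10, and Irf1 -0.00744 on 15. In the interaction, Cxcl9 was 0.18 and 0.10 on FPKM (pseudocount 1 and 0.1), and Irf1 -0.0452 and -0.0849 on 15 and 14 libraries. With 1 library left out, the day 14 values ran from -0.22 to 0.34 for Gbp2, -0.18 to 0.48 for Gbp4, -0.0389 to 0.64 for Gbp8, -0.61 to 0.71 for Igtp, -0.30 to 0.26 for Cxcl9, -0.0556 to 0.15 for Irf1 and -0.10 to 0.16 for Psmb10. The day 0 values ran from -0.41 to 0.82 for Cxcl9, -3.83 to 2.43 for Cxcl11 and -0.36 to 0.0731 for Psmb10, and the interaction from -0.77 to 0.46 for Cxcl9, -0.0934 to 0.11 for Irf1 and -0.0277 to 0.41 for Psmb10. The median of KO over WT at day 14 ran from -0.26 (without library 2 of KO) to 0.35 (without library 5 of WT), with 0.19, 0.22 and 0.22 without KO libraries 3, 4 and 5 and 0.01, 0.07 and 0.04 without WT libraries 1, 2 and 4. The r of Ifng with Cxcl9 ran from 0.325 to 0.658 and passed at an adjusted p of 0.0289 without 1 library.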
